A study of Mus musculus with 4 samples.

Results

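The endocrine cells of the embryonic mouse pancreas were taken from single-cell counts of sorted pancreatic cells at embryonic day 15.5. Cells were chosen by measured values: a barcode counted as an endocrine progenitor or hormone cell when it held at least 500 genes, at most 10% mitochondrial transcripts, at least 500 CPM summed over Chga, Chgb, Neurog3 and Fev, and less than 1500 CPM of the acinar enzyme gene Cpa1. CPM is the number of UMIs, the counted RNA molecules, per 1000000 UMIs of the cell or of the cells summed. The rule found 45 of 561 kept cells in the Ogt knockout library (8.02%, exact binomial 95% interval 5.91 to 10.6%) and 25 of 925 in the control library (2.70%, 1.76 to 3.96%), 70 cells of 1558 barcodes in all. Knockout cells came from PdxCre;OGTflox/flox;CAG GFP embryos and were sorted on endogenous GFP, with Cre driven by Pdx. Control cells came from OGTflox/flox embryos without that Cre, which the labels call WT, and were sorted on E-cadherin, so both groups carry the floxed allele. The labels describe 2 technical runs per genotype, whose barcodes cannot be separated, so each genotype is 1 library. Genotype and sort cannot be told apart, also for the share of endocrine cells, no test was possible, and the number of embryos pooled is not given in the sources used here. All intervals are exact 95% intervals that cover counting error only.

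Neurog3 is the bHLH transcription factor that commits cells of the pancreatic trunk to the endocrine lineage and is switched off again soon after. Its targets include Neurod1, Pax4, Insm1 and Nkx2-2, and Fev marks a stage that follows. The granins Chga and Chgb are acidic proteins of the dense-core granules in which hormone cells store their products. In the mouse, glucagon and ghrelin cells are among the first to form, and Pyy, encoding peptide YY, is made by many early islet cells together with other hormones. Ogt encodes the X-linked enzyme that attaches O-GlcNAc to serine and threonine of nuclear and cytosolic proteins, and Mgea5 (Oga) encodes the enzyme that removes it.

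The endocrine cells held 756278 UMIs in the knockout library (median 16602 per cell, 7923 to 30236) and 246448 in the control library (median 8862, 4382 to 22327), so control values are the less precise. The 8 leukocyte genes Ptprc, Tyrobp, Fcer1g, Csf1r, Laptm5, Cd52, Coro1a and Lyz2 summed to 64.1 to 863 CPM in knockout endocrine cells (median 403) and to 1220 to 6350 CPM in control ones (median 2492). None of the 8 was at 0 in either group, and the ranges did not overlap. In other kept cells the same sum had a median of 414 CPM in the knockout library and 12824 CPM in the control library. It reached 5000 CPM in 60 of 516 such cells of the knockout library and 812 of 900 of the control library. Values of other kept cells given below therefore describe cell mixes that differ between the libraries. Acinar genes summed to 4605 to 13663 CPM in knockout endocrine cells and 1974 to 6499 CPM in control ones. Xist was counted in 45 of 45 knockout and 6 of 25 control endocrine cells, and Y-linked genes in 0 and 14. Their part in the differences between the libraries was not tested.

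The label was set against other endocrine genes. The 26 pan-endocrine genes, which include Chga and Chgb, summed to 433 to 27324 CPM in knockout cells (median 10806) and 155 to 43671 CPM in control cells (median 5468). Epcam, an epithelial surface gene, was detected in 44 of 45 knockout and 24 of 25 control cells. One knockout cell held no Epcam, 559 CPM of Chgb, no Chga and 4411 CPM over the neural genes. The trunk and duct genes passed 8000 CPM in 2 knockout cells, the highest at 10347 CPM with 4 granin UMIs, and in 4 control cells, the highest at 11145 CPM. The knockout cells nearest the limit stood at 505, 559 and 606 CPM inside and 415, 383 and 342 CPM outside, and the control cells nearest it at 595, 913 and 1133 CPM inside and 498, 360 and 251 CPM outside. The Cpa1 limit alone left out 2 barcodes in each library. It lay close above the knockout cells, whose Cpa1 ran from 499 to 1467 CPM, against 0 to 985 CPM in control cells.

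Neurog3 and the granins were largely exclusive of each other in both libraries. A cell was called granin-led where Chga and Chgb made up at least 50% of its Neurog3, Chga and Chgb UMIs, and Neurog3-led otherwise. Granin-led cells were 33 of 45 in the knockout library (73.3%, 58.1 to 85.4%) and 13 of 25 in the control library (52%, 31.3 to 72.2%), and the intervals overlapped. The other 12 cells of each library were Neurog3-led. Cells with middle shares were rare: the knockout cells next to the dividing point had granin shares of 71.4% and 20.2%, and the control cells 66.7% and 23.1%. The order is a range of a score built from these genes and describes them, with no test.

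In granin-led knockout cells Neurog3 ran from 0 to 4771 CPM with a median of 0, against 784 to 5964 CPM in Neurog3-led ones (median 3378). In granin-led control cells it ran from 0 to 2716 CPM with a median of 0, against 1241 to 9403 CPM in Neurog3-led ones (median 2232). Overlap came from a single cell in each library that held both: a knockout cell with 60 Neurog3, 23 Chga and 127 Chgb UMIs, and a control cell with 15, 28 and 28. Chgb ranged from 0 to 13274 CPM in granin-led knockout cells (median 1078) and from 0 to 546 CPM in Neurog3-led ones (median 0). In the control library Chgb ranged from 0 to 24051 CPM in granin-led cells (median 2553), and 1 of 12 Neurog3-led cells held a single Chgb UMI.

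**Figure D1:**
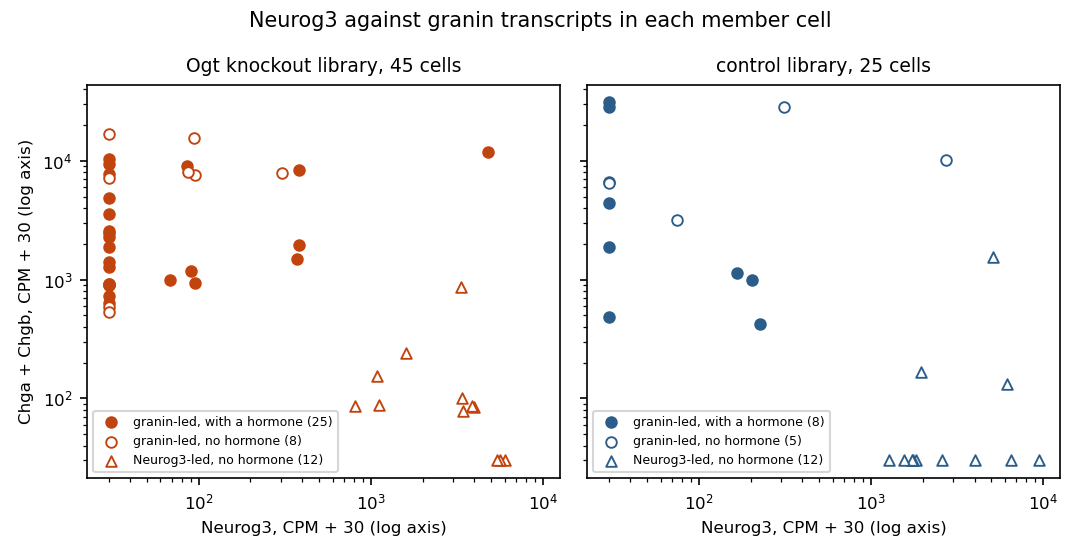
Each point is 1 endocrine cell, with Neurog3 on the x axis and Chga plus Chgb on the y axis, in CPM with 30 added and on log axes. Knockout cells are in the left panel and control cells in the right. Filled points had a hormone at 1000 CPM or more: 25 of 33 granin-led knockout cells, 8 of 13 granin-led control cells and no Neurog3-led cell.

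The promoters of Neurog3 and Chga, which define the 2 sides of the order, and of the hormone gene Gcg are shown from RefSeq (GRCm38.p6) as the 250 bases before each gene, 5′ to 3′ on the gene's strand. Capitals mark CANNTG, the E-box core that bHLH factors such as Neurog3 and Neurod1 recognise, and TGACG on either strand, the core of the cAMP response element.
Neurog3, chr10:62132840-62133089, plus strand: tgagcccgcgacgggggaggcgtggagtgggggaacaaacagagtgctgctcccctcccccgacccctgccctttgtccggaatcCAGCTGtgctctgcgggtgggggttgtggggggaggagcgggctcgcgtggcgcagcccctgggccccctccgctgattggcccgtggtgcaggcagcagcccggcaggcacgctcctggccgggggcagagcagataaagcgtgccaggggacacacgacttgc
Chga, chr12:102554691-102554940, plus strand: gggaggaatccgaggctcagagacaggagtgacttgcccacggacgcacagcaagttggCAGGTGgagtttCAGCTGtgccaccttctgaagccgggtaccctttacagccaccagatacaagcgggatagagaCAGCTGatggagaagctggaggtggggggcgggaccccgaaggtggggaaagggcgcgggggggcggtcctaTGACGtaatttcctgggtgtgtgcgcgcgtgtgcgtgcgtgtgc
Gcg, chr2:62483654-62483903, minus strand: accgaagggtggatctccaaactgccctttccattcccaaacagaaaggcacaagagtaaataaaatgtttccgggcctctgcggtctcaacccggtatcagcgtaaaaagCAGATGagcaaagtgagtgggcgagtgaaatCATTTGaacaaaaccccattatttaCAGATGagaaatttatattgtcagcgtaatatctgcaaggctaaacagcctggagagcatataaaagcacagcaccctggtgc

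The E-box core was found 1 time before Neurog3 and 3 times each before the other 2 genes, and the cAMP response core before Chga alone. Over 32817 RefSeq promoter windows, each searched in its first 250 bases, 66.2% held an E-box core and 17.7% a cAMP response core. For these shares annotated exons were not trimmed from the windows. An E-box core was present for 10 of 11 matched genes among the 12 named below as highest in granin-led cells and for 8 of 12 named as highest in Neurog3-led cells. A cAMP response core was present for 2 of 11 and 2 of 12 of them. The granin genes Chga, Chgb, Scg2, Scg3 and Scg5 all held a cAMP response core, and 2 of the 5 held the full element TGACGTCA, which 1.55% of all windows held. These matches are letters in a window and say nothing of binding in these cells.

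Genes of granule formation and prohormone processing stood higher in granin-led than in Neurog3-led cells of both libraries. Genes with 20 or more UMIs in the 2 ranges together were compared. Of 24 pan-endocrine genes in the knockout library 23 were at least 1.5-fold higher in granin-led than in Neurog3-led cells and 0 lower, and in the control library 20 of 20 were higher. Over all genes 26.2% were that much higher and 13.7% lower in the knockout library, and 22.8% higher and 20.8% lower in the control library. The median log2 ratio of the pan-endocrine genes, with 10 CPM added to both sides, was 2.15 in the knockout library and 4.08 in the control library, against 0.09 and 0.05 over all genes. Chga and Chgb, which define the order, are among them.

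Pcsk2, the prohormone convertase that cuts proglucagon in alpha cells, measured 364 CPM in granin-led and 0 CPM in Neurog3-led knockout cells, and 438 CPM in granin-led and 0 CPM in Neurog3-led control cells. With 3 counts in place of 0, it was at least 25.4-fold and at least 18.3-fold higher in granin-led cells of the knockout and control libraries. Pcsk1n, an inhibitor of the related convertase Pcsk1, stood at 1610 CPM in granin-led and 57.3 CPM in Neurog3-led knockout cells (ratio 28.1, 16.0 to 54.6). In the control library it was at 935 CPM in granin-led and 0 CPM in Neurog3-led cells. Cpe, the carboxypeptidase that trims cut prohormones, was 11.5-fold higher (7.11 to 19.9) in granin-led knockout cells and 30.6-fold higher (11.7 to 114) in granin-led control cells. Rbp4, the retinol carrier, stood at 3702 CPM in granin-led and 95.4 CPM in Neurog3-led knockout cells, against 2084 and 15.9 CPM in granin-led and Neurog3-led control cells. Slc38a5, an amino acid transporter of alpha cells, was 20.8-fold (11.8 to 40.5) and 48.8-fold (8.34 to 1968) higher in granin-led cells of the knockout and control libraries. Syt13 was the only one of the 24 between 1.5-fold limits in the knockout library, at 256 CPM in granin-led and 186 CPM in Neurog3-led cells.

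The machinery of stimulated release was present as well. Of 10 exocytosis and channel genes in the knockout library 6 were at least 1.5-fold higher in granin-led cells and 0 lower, and in the control library 4 of 4 were higher. Scgn, a calcium-binding protein of secretory cells, measured 196 CPM in granin-led and 9.54 CPM in Neurog3-led knockout cells, and 265 CPM in granin-led and 7.96 CPM in Neurog3-led control cells. Abcc8, the sulfonylurea receptor subunit of the K-ATP channel, measured 176 and 9.54 CPM in granin-led and Neurog3-led knockout cells, and 149 and 31.9 CPM in granin-led and Neurog3-led control cells.

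Progenitor genes ran the other way. Of 19 endocrine progenitor genes in the knockout library 14 were at least 1.5-fold lower in granin-led cells and 2 higher, and of 14 in the control library 9 were lower and 1 higher. Neurog3, which defines the order, is among them. Their median log2 ratio was -1.48 in the knockout library and -1.05 in the control library. Gadd45a, a growth arrest gene, held 29 UMIs in granin-led and 145 in Neurog3-led knockout cells (ratio of levels 0.0767, 0.0496 to 0.115), and measured 91.0 CPM in granin-led and 462 CPM in Neurog3-led control cells (0.20, 0.093 to 0.38). Sox4, an HMG-box factor needed for endocrine differentiation, measured 449.9 and 1408 CPM in granin-led and Neurog3-led knockout cells, against 414 and 1904 CPM in granin-led and Neurog3-led control cells. Cbfa2t3, a co-repressor, was lower in granin-led cells with a ratio of 0.21 (0.13 to 0.35) in the knockout library and 0.14 (0.042 to 0.35) in the control library. Btg2, an antiproliferative gene, was less different, with ratios of 0.67 (0.55 to 0.83) and 0.67 (0.47 to 0.93) in the knockout and control libraries.

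Dll1, the Notch ligand that Neurog3 cells present to their neighbours, held 3 UMIs in granin-led and 16 in Neurog3-led knockout cells, and 0 and 8 UMIs in granin-led and Neurog3-led control cells. Hes1, the Notch effector that represses Neurog3, measured 73.2 CPM in granin-led and 153 CPM in Neurog3-led knockout cells (0.48, 0.29 to 0.79). In the control library it measured 41.4 CPM in granin-led and 478 CPM in Neurog3-led cells (0.087, 0.027 to 0.21). Trunk and duct genes were lower with it: 8 of 10 in each library were at least 1.5-fold lower in granin-led cells, with 0 higher in the knockout library and 1 higher in the control library. Spp1, a secreted phosphoprotein of duct cells, measured 393 and 964 CPM in granin-led and Neurog3-led knockout cells, and 1175 and 3489 CPM in granin-led and Neurog3-led control cells. Tead2, a partner of YAP, had ratios of 0.13 (0.077 to 0.22) in the knockout library and 0.044 (0.0052 to 0.17) in the control library.

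Replication genes of the MCM helicase and its companions were also lower in granin-led knockout cells, 5 of 8 by at least 1.5-fold with 0 higher. Mcm2, a helicase subunit, measured 36.6 CPM in granin-led and 143 CPM in Neurog3-led knockout cells (0.26, 0.14 to 0.47). Of 9 mitosis genes 5 were lower and 0 higher. The control library held too few UMIs for this, with 0 replication genes and 1 mitosis gene at the minimum. Cdkn1a, the inhibitor of cyclin-dependent kinases, was also lower in granin-led cells by ratios of 0.61 (0.52 to 0.73) in the knockout library and 0.52 (0.36 to 0.75) in the control library.

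Across all genes, 2068 had the minimum of 20 UMIs in both libraries, and 1390 of them (67.2%) differed in the same direction along the order. In both libraries 58 genes were at least 2-fold higher in granin-led and 48 at least 2-fold higher in Neurog3-led cells with at least 20 UMIs on the higher side. The 12 with the largest ratios toward granin-led cells were Ghrl, Pcsk2, Ins1, Rbp4, Pyy, Chgb, Iapp, Gast, Pcsk1n, Ppy, Ins2 and Slc38a5, of which 7 are hormone genes. Nearly all Ins1 and Ins2 UMIs came from a single cell in each library. Ins1 was detected in 8 of 33 granin-led and 5 of 12 Neurog3-led knockout cells. The 22 Ppy UMIs of granin-led control cells lay in 2 cells. The 12 toward Neurog3-led cells were Neurog3, Tead2, Mmd2, Btbd17, Grasp, Gadd45a, Ccn1, Cat, Cbfa2t3, Aldh1b1, Prom1 and Gpx2. Aldh1b1 is an aldehyde dehydrogenase of pancreatic progenitors and Prom1 a membrane protein of trunk and duct cells. Cat and Gpx2 remove hydrogen peroxide. Cat measured 20.1 and 115 CPM in granin-led and Neurog3-led knockout cells, and 66.2 and 319 CPM in granin-led and Neurog3-led control cells. Gpx2 held 41 and 93 UMIs in granin-led and Neurog3-led knockout cells, and measured 116 and 469.9 CPM in granin-led and Neurog3-led control cells.

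**Figure D2:**
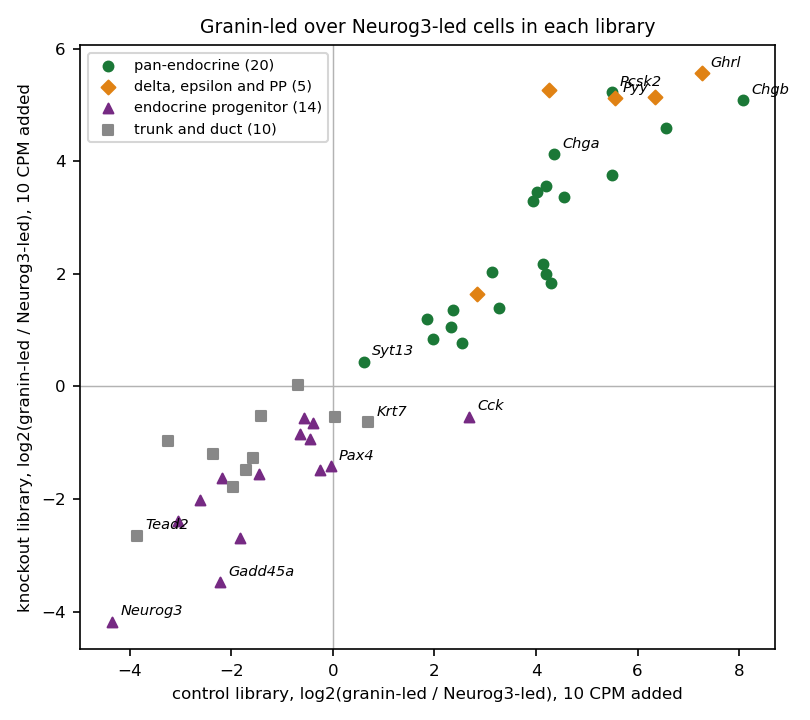
Each point is a gene with at least 20 UMIs in the endocrine cells of both libraries, with the log2 ratio of granin-led over Neurog3-led cells (10 CPM added to both sides) in the control library on the x axis and in the knockout library on the y axis. All 20 pan-endocrine genes lie above 0 on both axes, and of the progenitor and duct genes Cck and Krt7 lie lower right, with opposite signs in the 2 libraries.

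Transcription factors took their places along this order. Hes6, a Neurog3 target, was detected in all 12 Neurog3-led knockout cells, at 168 CPM in granin-led and 487 CPM in Neurog3-led cells (0.35, 0.26 to 0.46), and at 199 and 239 CPM in granin-led and Neurog3-led control cells (0.83, 0.46 to 1.47). Neurod2 measured 23.8 and 85.9 CPM in granin-led and Neurog3-led knockout cells, and 24.8 and 119 CPM in granin-led and Neurog3-led control cells. Insm1, Nkx2-2 and Nkx6-1 were present across the whole order. Nkx2-2 measured 185 and 296 CPM in granin-led and Neurog3-led knockout cells, and 215 and 287 CPM in granin-led and Neurog3-led control cells. Nkx6-1, later a beta cell factor, measured 192 and 196 CPM in granin-led and Neurog3-led knockout cells, and 207 and 183 CPM in granin-led and Neurog3-led control cells.

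Pax6, a factor of all islet hormone cells, was nearly always found with the granins. It was detected in 30 of 33 granin-led and 2 of 12 Neurog3-led knockout cells, and in 13 of 13 granin-led and 0 of 12 Neurog3-led control cells. Its level was 380.4 CPM in granin-led and 19.1 CPM in Neurog3-led knockout cells (19.9-fold, 7.67 to 73.8). Neurod1, a direct Neurog3 target that persists in hormone cells, was 2.67-fold (1.76 to 4.20) higher in granin-led knockout cells and 6.06-fold (2.52 to 17.6) higher in granin-led control cells. Other kept cells held 4.95 CPM of Pax6 in the knockout library and 3.44 CPM in the control library. Isl1, a LIM factor of maturing islet cells, was detected in 25 of 33 granin-led knockout cells and 8 of 13 granin-led control cells. In the Neurog3-led range it was found in 1 cell of each library, with 41 UMIs in the knockout cell and 6 in the control cell. Fev was likewise found in 1 Neurog3-led knockout cell, with 39 UMIs, and in 0 of 12 control ones. That knockout cell also held the most granin UMIs of its range, 7 of Chga and 13 of Chgb. Mafa, of mature beta cells, and Foxa1 had no UMI in any endocrine cell, which allows up to 3 UMIs in each library. Both were also at 0 CPM in the other kept cells of both libraries, so these zeros are not particular to the endocrine cells.

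**Figure D3:**
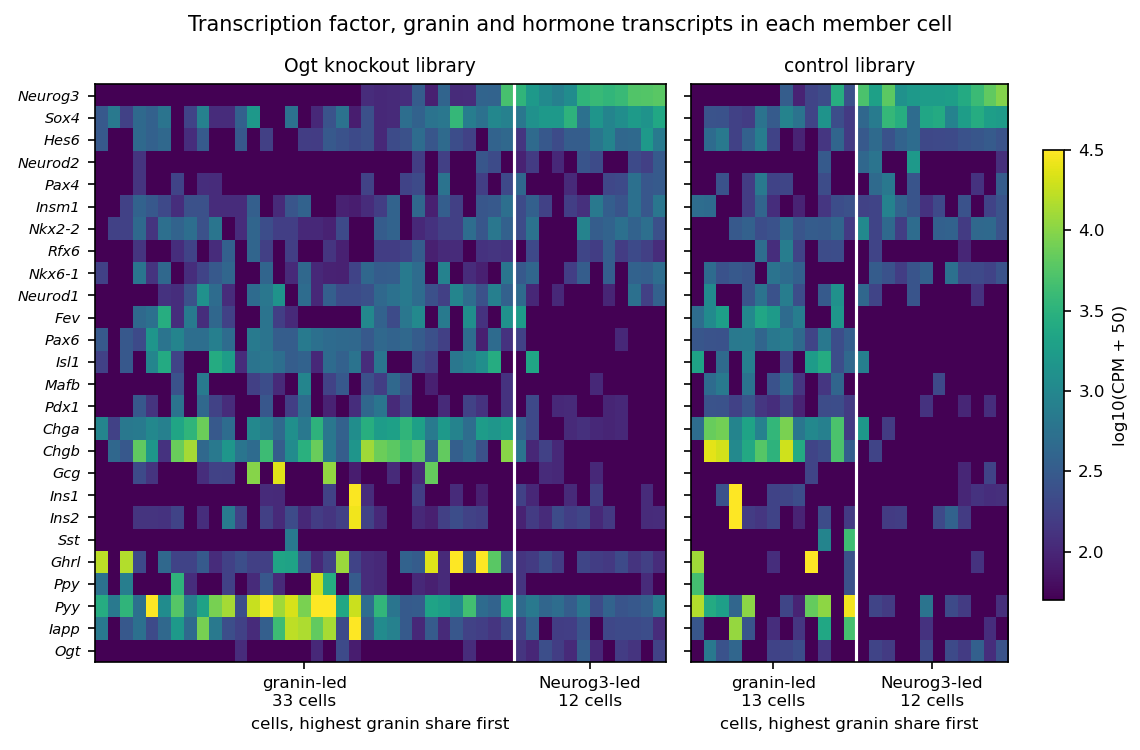
Rows are transcription factors, granins, hormones and Ogt, and columns are the endocrine cells with the highest granin share first, in the knockout library on the left and the control library on the right. Colour is log10 of CPM with 50 added, and the white line divides granin-led from Neurog3-led cells. Neurog3 and Sox4 fill the Neurog3-led side, Pax6 and the granins the other, and each hormone except Pyy is high in few cells.

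Every endocrine cell with a strong hormone transcript was granin-led. The limit for a strong transcript was 1000 CPM of any of Gcg, Ins1 plus Ins2, Sst, Ghrl, Ppy, Pyy and Iapp. The limit was reached by 25 of 45 knockout cells (55.6%, 40.0 to 70.4%) and 8 of 25 control cells (32%, 14.9 to 53.5%), all granin-led, and by 0 of the 12 Neurog3-led cells of each library. Among other kept cells 4 of 516 in the knockout library and 6 of 900 in the control library reached it. Leukocyte-like cells, with at least 5000 CPM over the 8 leukocyte genes, reached it in 0 of 60 knockout and 4 of 812 control cells, at median depths of 13640 and 10619 UMIs. Below the limit, low hormone counts were also found in cells not expected to make hormones, and the part of free RNA in them was not tested. Pyy was counted in 12 of 12 Neurog3-led knockout cells, at 387 CPM together, while leukocyte-like knockout cells held 283 CPM.

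Pyy was the most widespread hormone gene, past the limit in 23 knockout cells and 7 control cells. Its level over all endocrine cells was 10056 CPM in the knockout library and 2654 CPM in the control library (ratio 3.79, 3.50 to 4.11). In the granin-led knockout cells it ran from 186 to 103667 CPM with a median of 2651, and in the granin-led control cells from 0 to 28279 CPM with a median of 1864. The 4 highest knockout cells held 103667, 74022, 54348 and 36688 CPM, each more than any control cell, and below them the ranges overlapped.

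Ghrl, encoding ghrelin, passed the limit in 9 knockout cells (1985 to 41322 CPM) and 2 control cells (12551 and 38058 CPM). Over all endocrine cells it measured 3962 CPM in the knockout library and 1359 CPM in the control library. In the knockout library 5 cells held 88.7% of the Ghrl UMIs. Iapp, the amylin gene, passed the limit in 9 knockout and 3 control cells, and 8 of these 9 and 2 of these 3 held less than 1000 CPM of insulin. Ppy, of pancreatic polypeptide cells, passed it in 3 knockout cells and 1 control cell.

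Gcg, encoding glucagon, passed the limit in 4 knockout cells and 0 of 25 control cells (0%, 0 to 13.7%). The knockout cells held 6823, 9833, 11135 and 23693 CPM, and the control library had 4 Gcg UMIs in all its endocrine cells. Gcg measured 1355 CPM in the knockout library and 16.2 CPM in the control library (83.5-fold, 32.5 to 307), of which 5 knockout cells carried 98.8%. All 4 of the knockout cells also passed the limit for Pyy. One of them carried 22820 CPM of Ghrl beside 6823 CPM of Gcg, and another 74022 CPM of Pyy, 13397 CPM of Iapp and 2688 CPM of Ppy beside 11135 CPM of Gcg.

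Nearly all insulin UMIs came from 1 cell in each library. The knockout cell held 926 Ins1 and 828 Ins2 UMIs together with 563 of Pyy and 1307 of Iapp, and the control cell 678 Ins1 and 1850 Ins2 UMIs together with 3 of Pyy and 91 of Iapp. Ins1 and Ins2 are close paralogs, and how shared reads were assigned is not given in the sources used here. The levels of 1179 CPM of Ins2 in the knockout library and 7568 CPM in the control library each describe a single cell. Sst, encoding somatostatin, passed the limit in 0 of 45 knockout cells and 1 of 25 control cells, which held 43 UMIs of Sst together with 285 of Pyy and 47 of Iapp. The control insulin and Sst cells were the pair with the highest leukocyte sums, 4735 and 6350 CPM.

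More than 1 hormone past the limit was common in the same cell. It was found in 15 knockout cells (33.3%) and 5 control cells (20%, 6.83 to 40.7%), and 3 or more hormones in 7 knockout and 2 control cells. All 15 of those knockout cells and 4 of the 5 control cells included Pyy. Pyy was the only hormone past the limit in 8 knockout and 3 control cells, and Ghrl the only one in 2 and 0. Scrublet, which marks likely doublets, marked 8 knockout and 4 control cells of all those kept, and 0 of them were endocrine cells.

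**Figure D4:**
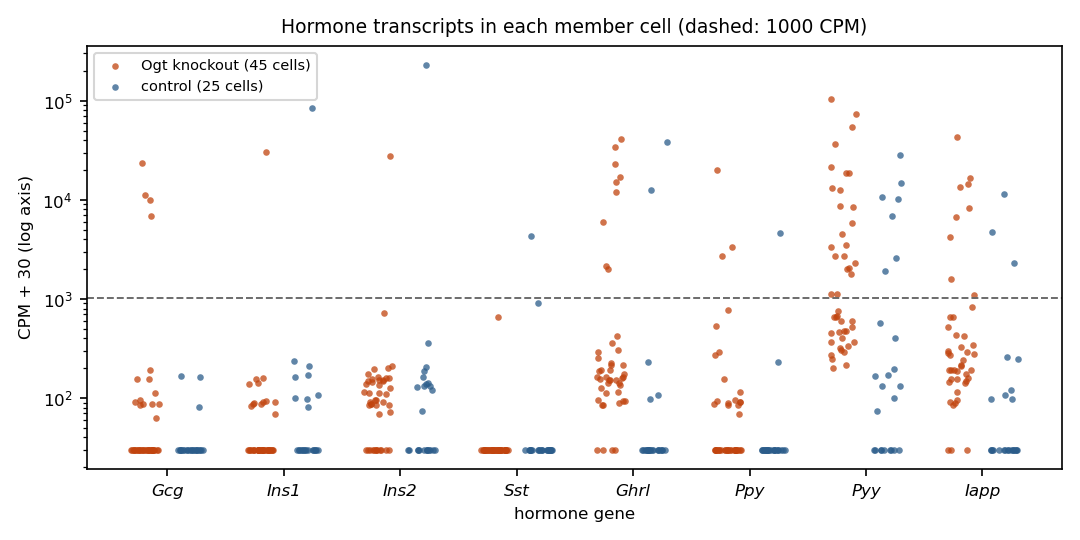
Each point is 1 endocrine cell and the y axis its CPM with 30 added, on a log axis, for each hormone gene with knockout cells left of control cells. Points on the lowest row have no UMI. Gcg passes the dashed line of 1000 CPM in 4 knockout cells and no control cell, and Pyy in 23 and 7.

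Granin-led cells were also divided by whether a hormone passed the limit, a split made after the data had been seen. Neurog3, Chga, Chgb and Fev were used by the rule that chose the cells, and Neurog3 and the granins also by the order, so their values here are a description of that choice. In the knockout library 25 granin-led cells had a hormone and 8 had none, and in the control library 8 and 5. The 8 hormone-free knockout cells include the cell described above with no Epcam, no Chga and 4411 CPM over the neural genes. Chgb measured 2125 CPM in hormone-bearing and 6533 CPM in hormone-free knockout cells, and 4147 and 5505 CPM in hormone-bearing and hormone-free control cells. Scg2, another granin, ran the other way, at 128 and 33.9 CPM in hormone-bearing and hormone-free knockout cells (3.78, 1.40 to 14.4) and with 21 and 0 UMIs in hormone-bearing and hormone-free control cells. Fev measured 271 and 508 CPM in hormone-bearing and hormone-free knockout cells (0.53, 0.39 to 0.74), and 416 and 1249 CPM in hormone-bearing and hormone-free control cells (0.33, 0.20 to 0.53). Isl1 stood on the other side, with 667 and 42.4 CPM in hormone-bearing and hormone-free knockout cells (15.7-fold, 6.67 to 48.9) and 1066 and 32.9 CPM in hormone-bearing and hormone-free control cells (32.4-fold, 8.62 to 274). Nkx6-1 was lower in hormone-bearing cells by ratios of 0.51 (0.33 to 0.78) in the knockout library and 0.39 (0.14 to 0.99) in the control library. In summed levels some other genes ran in opposite directions in the libraries. Neurog3 had a ratio of 2.86 (1.38 to 6.83) in the knockout library and 0.28 (0.082 to 0.79) in the control library. It held 83 UMIs in hormone-bearing knockout cells and 18 in hormone-free control cells. In each library most of these came from the single cell described above with both Neurog3 and granins, so no direction is read for Neurog3. Tm4sf4 had ratios of 1.83 and 0.28 in the knockout and control libraries, and Peg3 2.31 and 0.53.

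Ogt itself was lower in the knockout endocrine cells. Knockout cells held 27 Ogt UMIs and control cells 30, which gave 35.7 CPM and 122 CPM (ratio 0.29, 0.17 to 0.51). In granin-led cells it measured 14.6 CPM in the knockout library (8 UMIs in 5 of 33 cells) and 124 CPM in the control library (15 UMIs in 7 of 13 cells), with a ratio of 0.12 (0.043 to 0.30). One knockout cell held 4 of those 8 UMIs. In Neurog3-led cells it measured 90.7 CPM in the knockout library (19 UMIs in 10 of 12 cells) and 119 CPM in the control library (15 UMIs in 8 of 12 cells), with a ratio of 0.76 (0.37 to 1.60). After thinning every cell to 5000 UMIs, Ogt was seen in 0 of 33 granin-led knockout cells, which allows up to 9.09%, and in 4 of 10 granin-led control cells, and without thinning in 5 of 33 and 7 of 13. Other kept cells held 58.3 CPM in the knockout library and 60.4 CPM in the control library. With the limit of the 4 genes at 250 or 1000 CPM in place of 500 CPM, the granin-led ratio stood at 0.25 and 0.046.

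Ogt lies on chromosome X (GRCm38, 101640060 to 101684351, plus strand). Whether the counted end of its transcript falls in the deleted segment is not given in the sources used here, so the level is no check of the deletion. Against the 4 control endocrine cells with Xist and no Y-linked UMI, the ratio over all endocrine cells was 0.20. Mgea5, on chromosome 19, measured 29.1 CPM in the knockout library and 60.9 CPM in the control library (0.48, 0.24 to 0.99). Of 6 genes of O-GlcNAc cycling and hexosamine synthesis that reached 20 UMIs in the 2 libraries together, 3 were at least 1.5-fold lower in knockout cells (Ogt, Mgea5 and Uap1) and 0 higher. Over all 6451 genes at that minimum 20.4% were at least 1.5-fold higher and 16.2% at least 1.5-fold lower in knockout endocrine cells.

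Endocrine transcription factors were compared between the genotypes in granin-led and Neurog3-led cells apart, since the libraries held these in different shares. Of 23 factors with the minimum in granin-led cells, 3 were at least 1.5-fold higher in the knockout library, 9 lower and 11 between. Over all genes 23.3% were higher and 19.7% lower there. In Neurog3-led cells 5 of 13 were higher, 0 lower and 8 between, with 20.8% higher and 15.0% lower over all genes.

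Fev measured 322 CPM in granin-led knockout cells and 835 CPM in granin-led control cells (0.39, 0.30 to 0.50). It was detected in 20 of 33 knockout and 9 of 13 control cells of that range. Of the 10 genes listed for the Fev stage, 6 were at least 1.5-fold lower in granin-led knockout cells and 0 higher. Fev is among the 10, and the rule that chose the cells used it. In Neurog3-led cells the list went the other way, with 6 of 9 genes higher in the knockout library and 1 lower. Rfx3, a ciliogenic factor of islet cells, measured 34.8 CPM in granin-led knockout cells and 116 CPM in granin-led control cells (0.30, 0.14 to 0.65). Hhex, of delta cells, measured 95.1 and 290 CPM in granin-led knockout and control cells (0.33, 0.21 to 0.52), with 83.9 and 75.7 CPM in other kept cells of the knockout and control libraries. Pax4, a paired-box factor of the beta and delta lineages, measured 47.6 and 116 CPM in granin-led knockout and control cells (0.41, 0.21 to 0.85). A few control cells carried the levels of Fev, Hhex and Pax4: the 5 highest held 82.2%, 89.7% and 75.9% of their UMIs in all control endocrine cells. Over all endocrine cells the ratios of Fev, Hhex, Pax4 and Rfx3 were 0.69, 0.48, 0.63 and 0.41. The 5 highest counts of each gene were then taken out of each library, with the totals kept. The ratios of Fev, Hhex and Pax4 were then 1.61, 1.30 and 1.12, and that of Rfx3 0.51. This took out a larger share of the control cells, which by itself raises the ratios, so no direction is read from them.

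Other factors of the granin-led range were closer: Neurod1 had a ratio of 1.14 (0.79 to 1.69), Isl1 0.97 (0.74 to 1.29), Pax6 0.87 (0.64 to 1.20), Nkx2-2 0.86 (0.55 to 1.38), Insm1 1.14 (0.65 to 2.13), Pdx1 1.07 (0.58 to 2.12) and Nkx6-1 0.93 (0.60 to 1.5). All of these intervals include 1, and their outer bounds leave room for differences in either direction.

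In Neurog3-led cells Neurog3 itself measured 3188 CPM in the knockout library and 4062 CPM in the control library (0.78, 0.70 to 0.88). The median cell stood the other way, at 3378 CPM in the knockout library and 2232 CPM in the control library, and the ranges overlapped, so no direction is read from the summed ratio. Sox4 measured 1408 and 1904 CPM in Neurog3-led knockout and control cells (0.74, 0.62 to 0.88). Hes6 measured 487 CPM in the knockout library and 239 CPM in the control library (2.04, 1.34 to 3.17). Rfx6, of all endocrine cells, measured 95.4 CPM in Neurog3-led knockout cells and 15.9 CPM in Neurog3-led control cells (5.99, 1.46 to 52.9). It was detected in 8 of 12 of these knockout cells and 2 of 12 of these control cells, which held 2 UMIs. Granin-led cells went the other way for Rfx6, with a ratio of 0.53 (0.296 to 1.001). Over all endocrine cells its ratio was 1.05 (0.62 to 1.85), so no single direction is read for Rfx6. Neurod1 measured 124 and 47.8 CPM in Neurog3-led knockout and control cells (2.60, 1.05 to 7.71). The Isl1 value of this range rests on 1 cell in each library.

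**Figure D5:**
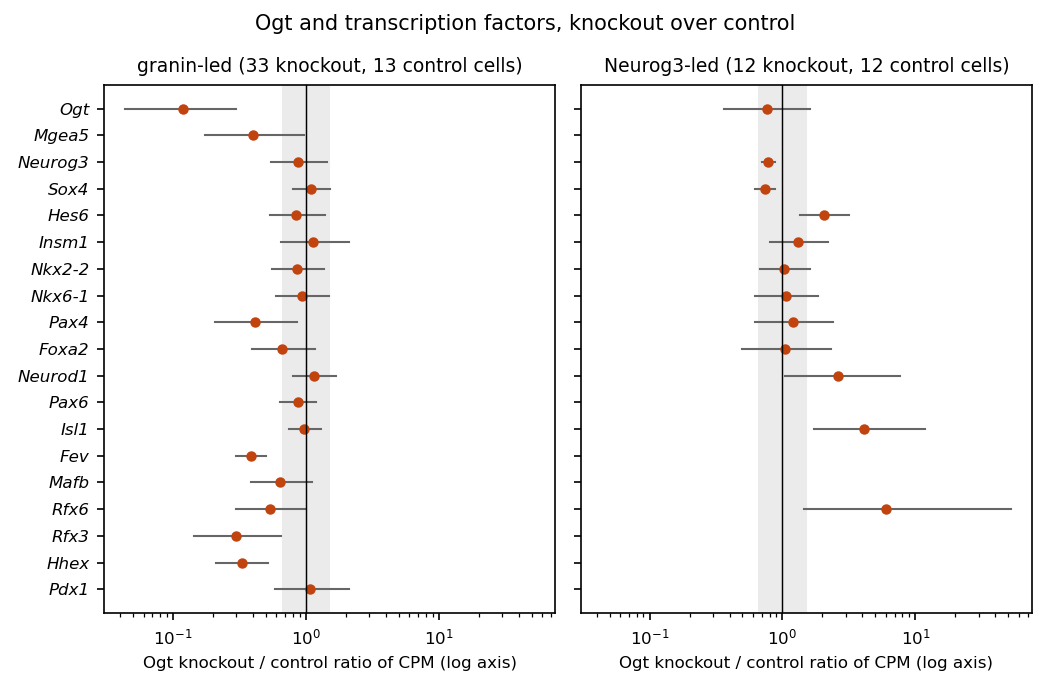
Points are ratios of CPM, knockout over control, on a log axis with exact 95% intervals of counting error, for Ogt, Mgea5 and endocrine transcription factors in granin-led cells on the left and Neurog3-led cells on the right. Genes with under 20 UMIs, or none in a library, have no point, and the grey band spans 1.5-fold either way. Ogt and Fev lie left of the band in granin-led cells and Hes6 right of it in Neurog3-led cells.

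Summed levels of Chga and Chgb were lower in granin-led cells of the knockout library, and a few control cells carried them. Chga measured 1414 and 2308 CPM in granin-led knockout and control cells (0.61, 0.53 to 0.71), and Chgb 3076 and 4831 CPM (0.64, 0.58 to 0.70). The median granin-led cell held 965 CPM of Chga in both libraries, and 1078 CPM of Chgb in the knockout library and 2553 CPM in the control library. The 5 highest cells held 40.0% of Chga and 46.4% of Chgb in all knockout endocrine cells, and 72.6% and 80.9% in the control ones. The 5 highest counts of each gene were then taken out of each library, with the totals kept. The ratios over all endocrine cells were then 1.93 for Chga and 2.65 for Chgb, against 0.88 and 0.95 before. This took out a larger share of the control cells, which by itself raises the ratios, so no direction is read from them. The rule and the order used both genes. Over 24 pan-endocrine genes of granin-led cells 5 were at least 1.5-fold higher in the knockout library, 6 lower and 13 between, with a median log2 ratio of -0.04 against 0.04 over all genes. Alpha cell genes were higher in 8 of 11 cases and lower in 2, with a median of 1.41. Genes of delta, epsilon and PP cells were higher in 7 of 9 and lower in 2, with a median of 1.04. In the same granin-led cells acinar genes were at least 1.5-fold higher in 7 of 8 cases, the leukocyte genes above lower in 7 of 7 and mesenchyme genes higher in 6 of 7. Their part in these differences was not tested. Other kept cells, mostly leukocyte-like in the control library but not in the knockout library, differed in the same direction. Alpha cell genes were higher there in 9 of 11 cases and lower in 1, and genes of delta, epsilon and PP cells higher in 7 of 8 and lower in 0. Of all 13607 genes compared there, 5171 were higher and 2579 lower.

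Genes highest in knockout over control endocrine cells were named under conditions on counts, cells and non-member levels, which 83 genes met. A minimum of 30 UMIs in the higher library is harder to meet at the control depth, and 1 gene met all conditions in the other direction. The 12 largest were Serpina1b, Sumf1, Serpina1c, Sphkap, Ttr, Serpina1e, Fhl2, Dnajc12, Prpf18, Ank, Jade3 and Fabp3. Serpina1b, an alpha-1 antitrypsin gene, measured 574 CPM in 41 of 45 knockout cells and 0 CPM in control cells, at least 47.1-fold higher. Other kept cells held 247 CPM of Serpina1b in the knockout library and 3.78 CPM in the control library. Serpina1c measured 1369 and 191 CPM in knockout and control endocrine cells (7.18, 5.36 to 9.83) and Serpina1e 561 and 93.3 CPM (6.01, 3.95 to 9.58). The difference was also present outside the endocrine cells: other kept knockout and control cells held 375 and 39.5 CPM of Serpina1c, and 90.6 and 3.78 CPM of Serpina1e. Leukocyte-like knockout and control cells alone held 116 and 10.4 CPM of Serpina1c, and 28.5 and 2.03 CPM of Serpina1e. The Serpina1 genes are near-identical copies between which reads can be split, so their single values are uncertain.

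Ttr, the thyroxine carrier transthyretin that alpha cells express, measured 3807 and 641 CPM in knockout and control endocrine cells (5.94, 5.06 to 7.01), in 45 of 45 and 16 of 25 cells. Other kept cells held 875 CPM of Ttr in the knockout library and 215 CPM in the control library. Sphkap, an anchor of protein kinase A, measured 56.9 CPM in 21 of 45 knockout cells and 0 CPM in control cells, at least 4.67-fold higher, with 1.62 CPM in other kept knockout cells. Dnajc12, a co-chaperone, measured 172 and 36.5 CPM in knockout and control endocrine cells (4.71, 2.40 to 10.5), against 16.1 and 11.3 CPM in other kept knockout and control cells. Sumf1, the enzyme that activates sulfatases, measured 93.9 CPM in 31 of 45 knockout cells and 4.06 CPM in 1 of 25 control cells (23.1, 4.02 to 927), while other kept cells held 19.4 CPM in the knockout library and 43.6 CPM in the control library. The gene lower in knockout cells was Kcnq1ot1, an imprinted non-coding RNA, at 95.2 and 211 CPM in knockout and control endocrine cells (0.45, 0.31 to 0.66). Its level went the other way in other kept cells, at 165 CPM in the knockout library and 55.8 CPM in the control library.

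Other gene groups were compared over all endocrine cells, which mix the granin-led and Neurog3-led ranges in different shares, and then in each range. Over all genes 20.4% were at least 1.5-fold higher and 16.2% lower in knockout endocrine cells. Of 20 unfolded protein response genes 4 were at least 1.5-fold higher in the knockout library, 1 lower and 15 between, close to the shares over all genes. Hspa5, the ER chaperone BiP, measured 703 and 475 CPM in knockout and control cells (1.48, 1.21 to 1.83). Of 12 p53 and apoptosis genes 1 was higher and 3 lower, while in granin-led cells 4 of 10 were higher and 2 lower and in Neurog3-led cells 1 of 6 was higher and 3 lower. Bax, which promotes cell death at mitochondria, measured 401 and 207 CPM in knockout and control cells (1.94, 1.44 to 2.66), and Cdkn1a 774 and 580 CPM (1.33, 1.11 to 1.61). The 3 lower over all endocrine cells were Bcl2 and Bcl2l1, which oppose Bax, and Ccng1, with Bcl2 at 30.4 and 97.4 CPM in knockout and control cells. Of 19 immediate early and heat shock genes 5 were higher and 4 lower, again near the shares over all genes. Of 9 replication genes 6 were higher and 0 lower, with a median log2 ratio of 0.61, and of 10 mitosis genes 4 were higher and 0 lower, with a median of 0.50. In granin-led cells 4 of 7 replication and 3 of 8 mitosis genes were higher and 0 lower, and in Neurog3-led cells 4 of 4 and 4 of 6 were higher and 0 lower. Of 11 imprinted growth genes 6 were higher and 0 lower, but in granin-led cells 6 were higher and 2 lower. Among the higher ones was Dlk1, a Notch-like surface protein, at 1165 and 235 CPM in knockout and control endocrine cells. Dlk1 stood at 1908 CPM in other kept knockout cells and 162 CPM in other kept control cells.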

How the data were processed

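UMI counts per gene and cell were read from the deposited tables, 1 per genotype. Tools named in the submitters' processing notes are Cell Ranger 2.0.0, Seurat 2.0 and DESeq2 1.14.1, with the build mm10. The filter that made barcodes into cells is not given in the sources used here. Of 27998 gene identifiers 27645 took a symbol from GENCODE M21 (GRCm38, the build of mm10), and those without held 0.0315% of knockout and 0.0274% of control UMIs. The libraries shared 0 barcodes.

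The members and the 31 gene lists were chosen with earlier results of these data known. Counts were summed over cells and scaled to CPM in Python 3.11.15 with scipy 1.17.1. Levels carry exact Poisson, ratios exact conditional and shares exact binomial intervals at 95%. A gene with 0 UMIs on a side was bounded with 3 counts over the group. Nothing was tested, as cells are not replicates. Genes of a list needed at least 20 UMIs over both sides. Genes named between genotypes had the largest log2 ratios (10 CPM added) among those that held 30 or more UMIs, spread over 8 or more cells, in the higher library, with a ratio of at least 2, at most 50% of UMIs in 5 cells and a level at least 2-fold over other kept cells of that library. Genes named along the order were at least 2-fold apart the same way in both libraries. Hormones, the granins, Fev, Neurog3, Ogt, Mgea5, endocrine factors with at least 20 UMIs and the most abundant genes of each list were followed whatever their value, except 1 factor that is not reported here, and predicted, Xist and Y-linked genes were not ranked. Leukocyte-like cells were set at 5000 CPM after the data had been seen. The ratio interval was tested on simulated data. Doublets were marked with Scrublet through scanpy 1.11.5 and kept. Alternatives included TMM scaling (edgeR 4.0.16) and median-of-ratios scaling (DESeq2 1.42.0).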

Additional observations from a re-analysis of the deposited data

Results flagged for a closer look

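Cck, encoding cholecystokinin, ran along the order in opposite directions in the libraries: its level in granin-led over Neurog3-led cells had a ratio of 0.68 in the knockout library and 9.87 in the control library. It held 185 UMIs in 24 of 33 granin-led and 104 UMIs in 5 of 12 Neurog3-led knockout cells, against 19 UMIs in 6 of 13 granin-led and 2 UMIs in 2 of 12 Neurog3-led control cells. Krt7, a keratin of duct cells, had a ratio of 0.64 in the knockout library and 1.63 in the control library. In Neurog3-led control cells 20 of its 42 UMIs came from 1 cell. The difference between the libraries was not tested for either gene.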

How the results depend on the processing

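No paired analysis was possible because the runs of each genotype are pooled in 1 table with no label per cell, and leaving out a run was not possible for the same reason. A Cpa1 limit of 500 CPM left 1 knockout cell (Neurog3-led, so granin-led cells were 0% and hormone cells 0) and could not describe the knockout cells: over that cell the Ogt ratio was 2.37, the ratios of Ttr and Serpina1e were 0.65 and 0.75, those of Sumf1, Dnajc12, Ank, Jade3 and Fabp3 were 0, 492 genes were higher than in control cells, and 0 genes were higher or lower along the knockout order. With the 5 highest Ogt counts of granin-led cells taken out of each library, the Ogt ratio in those cells was 0. Ogt was counted in only 5 of 33 granin-led knockout cells, so that setting fixed the value in advance. Otherwise the Ogt ratio stayed between 0.20 and 0.36 over all endocrine cells and between 0.046 and 0.25 in granin-led ones. Counts of genes past the fold followed the minimum and the fold. With a minimum of 10, 50 or 1 UMIs, or with 2-fold, 2091, 573, 5192 and 635 genes were higher in knockout than in control cells and 1776, 341, 3874 and 394 lower. In granin-led over Neurog3-led cells of the knockout library the same settings gave 2408, 497, 5835 and 775 higher and 1319, 257, 3206 and 299 lower, and in the control library 1216, 113, 4721 and 233 higher and 874, 183, 3427 and 194 lower. A limit of 1000 CPM on leukocyte genes left no control cell and gave no value. Leaving out the 2 control cells over 4000 CPM of leukocyte genes, the knockout cell with neural RNA or the cells over 8000 CPM of duct genes, all chosen after seeing the data, kept each main count within 1.5 times and the Ogt ratios between 0.11 and 0.30. With 1 library per genotype, no value separates genotype from sort, sex or pooling, and control values rest on fewer UMIs.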

Other observations

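Hormone transcripts at 1000 CPM or more were also found outside the endocrine cells as chosen: in 4 of 516 other kept cells of the knockout library and 6 of 900 of the control library. Pyy passed that limit in 3 knockout and 4 control cells of these, and Gcg in 1 knockout and 3 control cells, although no control endocrine cell passed it for Gcg. Of the 6 control cells, 4 held at least 5000 CPM over the 8 leukocyte genes. The Cpa1 limit alone left out cells with 3051 and 995 CPM over Chga, Chgb, Neurog3 and Fev in the knockout library, and with 3123 and 2285 CPM in the control library.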
